A study of Homo sapiens with 20 samples.

Results

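The genes described here act at the entry into S phase and at the replication fork. They are 52 genes that license origins, activate the replicative helicase, copy DNA, load and use the sliding clamp, bind single-stranded DNA, supply nucleotides, control the G1/S step, or serve new chromatin and replication checkpoints. They were chosen by gene symbol, and a gene was kept where a probe (a bead-bound oligonucleotide that reads 1 transcript) had a detection p-value under 0.05 on at least 2 of 20 arrays. Of the 52 genes, 51 met this rule, with 74 of their 77 probes among the 29551 of 47319 probes on the array that met it. The exception was CCNE2, which encodes cyclin E2 and was detected on 0 of 20 arrays. Probes detected on at least 10 arrays were tested, which left 70 probes of 49 member genes among 21189 probes of 11864 genes in all. CDC6 and DBF4 met the rule and were not tested.

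RNA was measured in 5 established human triple-negative breast cancer (TNBC) cell lines on Illumina beadchips. The treated cells were starved of serum for 24 h and then given 5% of a pool of postsurgery wound-healing fluids (WHFs) for 48 h, and the untreated cells were starved in the same way and left without WHF. Each line, MDA-MB-231, BT549, MDA-MB-157, MDA-MB-468 and SUM149, had 2 WHF-treated and 2 untreated cultures, labelled A and B, which makes 20 arrays. In the study SUM149 and MDA-MB-468 count as basal-like and the other 3 lines as mesenchymal-like. Each experiment used a pool of 5 fluids, and which cultures shared a pool is not given in the sources used here.

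Replication starts from origins that are licensed in G1, when the origin recognition complex, CDC6 and CDT1 load the MCM2 to MCM7 ring onto DNA. Cyclin E with its kinase, and CDC7 with DBF4, then fire the origins, as CDC45 and the GINS complex turn the ring into a running helicase. DNA polymerase alpha with primase starts each strand, polymerases delta and epsilon extend it on the PCNA clamp that RFC loads, and FEN1 and LIG1 join the lagging fragments. Many of these genes are transcribed under E2F factors, which the retinoblastoma protein RB1 restrains in resting cells, so that as a group they mark cells that pass from G1 into S phase.

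Levels are log2 signals after background correction and quantile normalization, and each probe was compared only with itself. A change is the mean of the WHF-treated arrays minus the mean of the untreated arrays of a line on the log2 scale, so that 1 unit is a doubling, and the value after ± is its standard error from a limma fit of all 20 arrays with 2 arrays in each group. A change passed the test at a Benjamini-Hochberg adjusted p under 0.1 over the 21189 probes. Between 58 and 71 member probes were detected on the WHF-treated arrays and between 65 and 72 on the untreated arrays. The epithelial marker CDH1 gave signal on all 4 arrays of either basal-like line, SUM149 and MDA-MB-468, on 1 array of MDA-MB-157 and on none of the arrays of BT549 or MDA-MB-231. Of the other epithelial markers, EPCAM, KRT8 and KRT18 gave signal in every line but BT549, KRT19 in MDA-MB-231 and both basal-like lines, and KRT5 in both basal-like lines and in untreated BT549 cells, so that the basal-like lines did not stand alone in them. The mesenchymal marker VIM was detected on all arrays. FN1 was detected in all 5 lines, though in MDA-MB-468 in only 2 of 6 probe readings with WHF and 1 of 6 untreated. ZEB1 was detected in MDA-MB-231 and BT549 only, and CDH2 in every line but MDA-MB-468. Receptor genes that define triple-negative cells by their absence were also read. ESR1 was detected on all 4 arrays of either basal-like line and on 1 untreated array of MDA-MB-157, PGR on all 4 arrays of MDA-MB-157, and ERBB2 by some of its 3 probes in all 5 lines. Of the blood cell markers with a probe, the leukocyte marker PTPRC, the T-cell marker CD3E, hemoglobin HBA1 and platelet PF4 were detected on 0 of 20 arrays, and CD14 and CD68 were detected with and without WHF in all 5 lines. Hemoglobin HBA2 was detected with and without WHF in every line but MDA-MB-231, S100A12 and ITGAM in both arms of SUM149, ITGAM also on 1 untreated array each of MDA-MB-468 and MDA-MB-157, and HBB on 1 untreated array of MDA-MB-468. The part of the cells these genes mark in the responses was not tested. Each line lay within 1 chip. MDA-MB-231 had a chip of its own, MDA-MB-468 shared a chip with SUM149, and BT549 shared a chip with MDA-MB-157.

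The replication genes were lower with WHF in MDA-MB-231 and MDA-MB-468, and in BT549 and SUM149 more of them were higher than lower. Each gene is counted here by its probe with the highest mean. In MDA-MB-231, 30 of 49 genes fell and 0 rose, among them CHAF1A, E2F2, FEN1, MCM10 and CDT1. In MDA-MB-468, 13 fell and 0 rose, among them RRM2, E2F2, CDT1 and TYMS. In BT549, 10 rose, with ORC1 and MCM5 in front, and 5 fell. In SUM149, 11 rose, led by POLA2, POLD1 and TYMS, and only CHAF1A fell. In MDA-MB-157, 3 fell, namely BARD1, TYMS and RPA2, and 0 rose.

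By probe, 42 of the 70 members fell in MDA-MB-231, where 13.3% of all tested probes fell, and 0 rose, against 11.4% of all. In MDA-MB-468 the members that fell were 17 of 70, against 2.99% of all probes, and 0 rose, against 3.17% of all. In BT549, 13 rose and 10 fell, against 16.6% and 18.2% of all probes, and by probe both shares lay near the background. In SUM149, 12 rose, against 14.5% of all, which by probe is near the background as well, and 3 fell, against 17.8% of all. In MDA-MB-157, 3 fell, close to the 4.35% of all probes that fell, and 0 rose, against 4.56% of all. The median change over the 49 genes was -0.73 in MDA-MB-231, -0.51 in MDA-MB-468, -0.16 in MDA-MB-157, 0.17 in BT549 and 0.24 in SUM149, while the median over all tested probes lay between -0.0037 and 0.0216. With genes below background at their bound, the median in MDA-MB-231 was -0.72. A bulk signal does not tell fewer cycling cells from less RNA per cell.

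Signs were compared between the replicates. The member probes with the same sign in A and B were 61 of 70 in MDA-MB-231, 62 in MDA-MB-468, 55 in BT549, 55 in SUM149 and 47 in MDA-MB-157. The share over all probes was not computed. All of the probes that passed the test had the same sign in both, which a call favors and which is thus no separate evidence. The letters are not known to mark pairs of cultures. The arms did not overlap for 56 of 70 member probes in MDA-MB-231, against 58.5% of all tested probes. The counts were 61 in MDA-MB-468 (53.7% of all), 46 in BT549 (64.1%), 38 in MDA-MB-157 (52.7%) and 37 in SUM149 (58%). A gap between the arms was thus common over all probes. The number of calls depended on single arrays. Without WHF-treated replicate B of MDA-MB-231 26 member probes fell, and without untreated replicate A 27 fell. In MDA-MB-468, 0 fell without WHF-treated replicate A, 4 without WHF-treated replicate B, 1 without untreated replicate A and 7 without untreated replicate B, and in MDA-MB-157 none of the 3 passed once any of its 4 arrays was left out. In BT549, 4 rose without WHF-treated replicate B, 7 without untreated replicate A and 8 without untreated replicate B, and 6 fell without WHF-treated replicate A and 5 without untreated replicate A. In SUM149, 25 rose without WHF-treated replicate A, 5 without WHF-treated replicate B and 5 without untreated replicate A. The direction of each line's median held in every such fit, though its size did not. The median in MDA-MB-231 was -0.47 without WHF-treated replicate B and -0.87 without WHF-treated replicate A. In SUM149 it was 0.09 without WHF-treated replicate B, 0.14 without untreated replicate A and 0.41 without WHF-treated replicate A. In BT549 it was 0.07 without WHF-treated replicate B and 0.11 without untreated replicate B, and in MDA-MB-157 it was -0.11 without untreated replicate A. In MDA-MB-468 it lay between -0.53 and -0.48.

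Of the 53 calls in a line of the genes given below on each array, 18 passed with any one of the 20 arrays left out, and the other 35 lost the call without at least 1 array. The 18 were the falls of CDT1, MCM3, MCM10, CDC7, POLE, POLE2, FEN1, TK1, E2F2, CHAF1A, UHRF1 and UNG in MDA-MB-231, of CDC7 and GINS1 in BT549 and of CHAF1A in SUM149, and the rises of DSCC1 in BT549 and of POLA2 and TYMS in SUM149. None of the 10 calls in MDA-MB-468 and the 3 in MDA-MB-157 was among them. For dim genes the size of a change depended on the background correction. Without it the change in MDA-MB-231 was -0.70 for CDT1, -0.98 for MCM10, -0.79 for E2F2, -0.82 for CHAF1A and -0.48 for BRCA1, that of GINS1 in BT549 was -0.39, and that of CHAF1A was -0.36 in MDA-MB-468 and -0.40 in SUM149, each with its call kept.

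**Figure D1:**
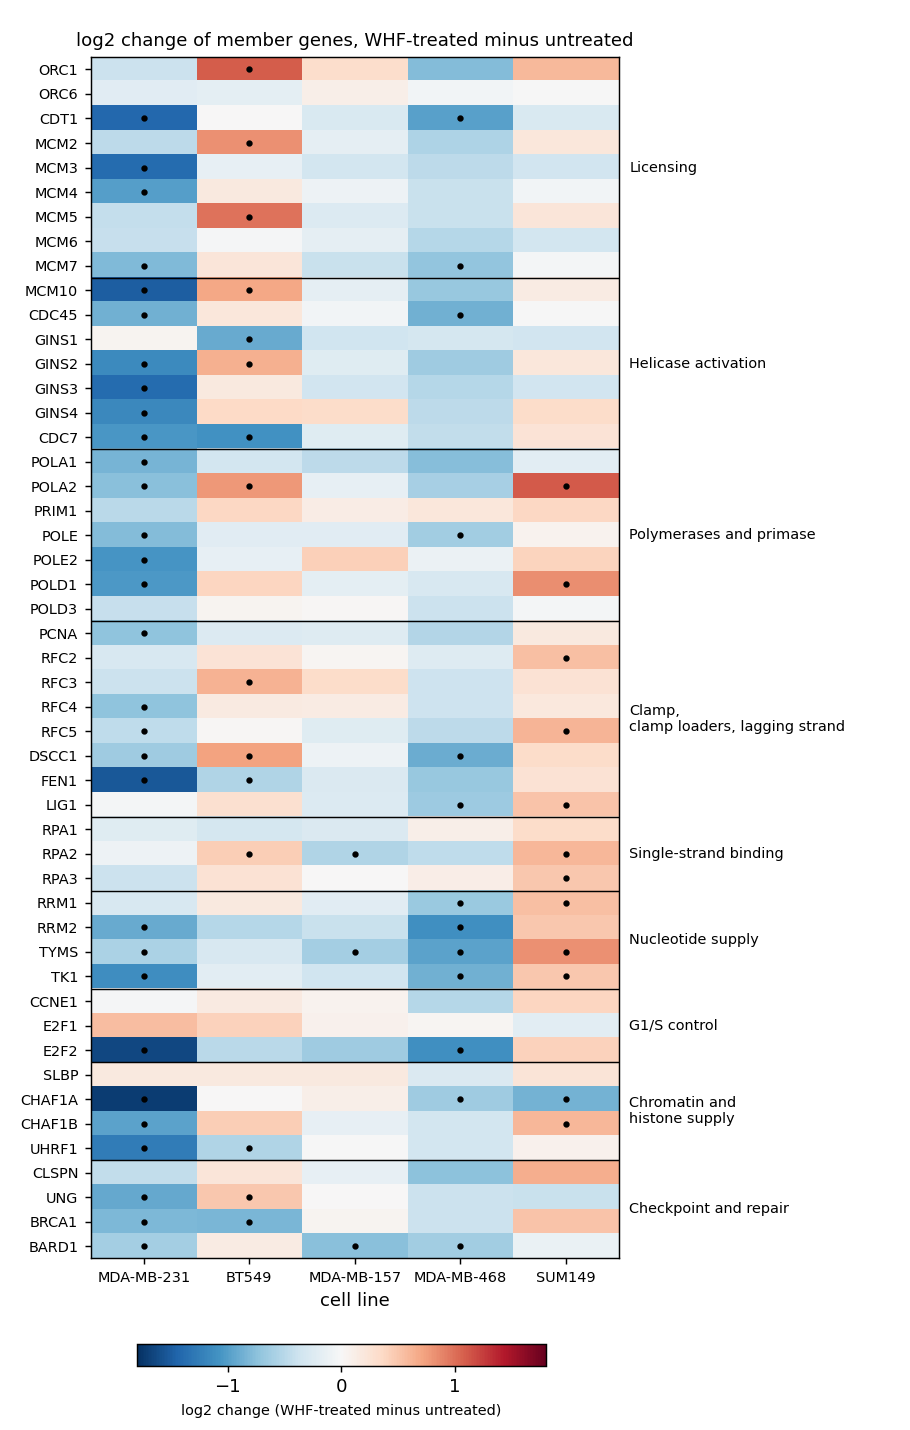
Log2 change (WHF-treated minus untreated, color) of the 49 tested member genes (rows, grouped by role) in the 5 lines (columns), with a black dot where the change passed the test. MDA-MB-231 has 30 dots, all on lower genes, MDA-MB-468 has 13, all on lower genes, and SUM149 has 11 on higher genes and 1 on a lower gene.

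Promoters of the members were searched for the motif of E2F factors, since the members share this control in the textbook account. RefSeq promoter windows (GRCh38.p14, 250 bases before to 50 after the transcription start) were matched by symbol for 44 of the 52 genes. The motif was spelled TTTCGCGC or TTTGGCGC and looked for on both strands, where matches can overlap. It stood in 13 of 44 member genes (29.5%), against 382 of 27305 genes of the table (1.40%). By role it stood in 5 of 8 licensing genes, 4 of 6 genes of polymerases and primase and 2 of 3 of G1/S control, and in 0 of 7 genes of the clamp group and 0 of 4 of nucleotide supply. Among members that fell in MDA-MB-231 it stood in 8 of 27, and among those with no call there in 4 of 15. The motif TTTGAA, known as CHR and found in many genes of G2 and mitosis, stood in 3 of 44 member genes (6.82%), against 18.2% of all genes.

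The 160 bases before the start of 5 members are shown to set a promoter with repeated matches beside promoters with a single match and one with none. Capitals mark the matches. MCM6 carries a pair of copies, each of which matches on both strands. POLA2, which changed in opposite directions between lines, POLE and E2F2 carry a single match, and CDT1, which fell in MDA-MB-231 and MDA-MB-468, holds no match to these letters.
MCM6, chr2:135876444-135876603, minus strand: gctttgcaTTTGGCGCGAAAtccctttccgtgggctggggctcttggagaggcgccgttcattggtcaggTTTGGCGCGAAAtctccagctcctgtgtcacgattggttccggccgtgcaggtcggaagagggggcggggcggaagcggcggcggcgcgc
POLA2, chr11:65261802-65261961, plus strand: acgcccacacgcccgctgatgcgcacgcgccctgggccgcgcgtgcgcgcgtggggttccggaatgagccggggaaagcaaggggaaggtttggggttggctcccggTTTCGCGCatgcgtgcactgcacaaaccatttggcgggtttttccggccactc
POLE, chr12:132687343-132687502, minus strand: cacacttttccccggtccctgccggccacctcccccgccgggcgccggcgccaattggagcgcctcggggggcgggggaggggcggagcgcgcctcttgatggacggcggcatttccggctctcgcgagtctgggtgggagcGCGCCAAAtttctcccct
E2F2, chr1:23531234-23531393, minus strand: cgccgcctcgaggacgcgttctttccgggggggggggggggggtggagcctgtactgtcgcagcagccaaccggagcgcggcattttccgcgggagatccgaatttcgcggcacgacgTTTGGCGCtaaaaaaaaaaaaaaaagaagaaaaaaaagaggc
CDT1, chr16:88803629-88803788, plus strand: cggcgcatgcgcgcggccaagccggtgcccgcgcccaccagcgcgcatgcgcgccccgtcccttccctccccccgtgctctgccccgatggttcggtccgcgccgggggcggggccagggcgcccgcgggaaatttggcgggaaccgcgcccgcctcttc
A match is a description of the letters and no evidence of binding in these cells. The counts and matches hold only for the spellings searched. The stretches of CDT1 and POLA2 also hold tttggcgg, which differs from TTTGGCGC in its last letter and was not counted. That of E2F2 also holds tttcgcgg, which differs from TTTCGCGC in its last letter and was not counted either.

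From here on the calls are counted by role, with few genes in each, and no test of a role was made. Of all tested probes, 16.6% rose and 18.2% fell in BT549, while SUM149 had 14.5% higher and 17.8% lower. A small number of calls in a role can thus lie near the background in these lines. The shares of all probes that fell were 13.3% (MDA-MB-231), 2.99% (MDA-MB-468) and 4.35% (MDA-MB-157). In the licensing group, MCM3 and CDT1 fell in MDA-MB-231 and 3 genes rose in BT549. Of the 9 tested genes, 4 fell in MDA-MB-231 (median -0.47), 2 fell in MDA-MB-468 (median -0.52), 3 rose in BT549 (median 0.18), and 0 passed in MDA-MB-157 (median -0.17) or in SUM149 (median -0.04, and 0.28 when arrays were scaled by their medians instead). CDT1 brings the MCM ring to origins and is inhibited by geminin. CDT1 read 5.84 and 5.58 with WHF against 7.64 and 6.61 untreated in MDA-MB-231 cells, 9.04 and 9.18 with WHF against 9.15 and 9.05 untreated in BT549 cells, and 7.35 and 7.07 with WHF against 7.14 and 7.84 untreated in MDA-MB-157 cells. In MDA-MB-468 CDT1 read 9.16 and 9.42 with WHF against 10.32 and 10.23 untreated, and in SUM149 it read 8.94 and 9.08 with WHF against 9.26 and 9.32 untreated. Both WHF-treated arrays lay below both untreated arrays in SUM149, MDA-MB-231 and MDA-MB-468, and 1 of the 2 WHF-treated MDA-MB-231 arrays was not above background. CDT1 fell in MDA-MB-231 (-1.42 ± 0.27, adjusted p = 0.00248) and in MDA-MB-468 (-0.98 ± 0.27, adjusted p = 0.0620).

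MCM3 is a subunit of the MCM ring. MCM3 read 11.39 and 10.94 with WHF against 12.69 and 12.43 untreated in MDA-MB-231 cells, 12.57 and 12.65 with WHF against 12.86 and 12.65 untreated in BT549 cells, and 12.73 and 12.78 with WHF against 13.12 and 13.07 untreated in MDA-MB-157 cells. In MDA-MB-468 MCM3 read 13.25 and 13.08 with WHF against 13.57 and 13.69 untreated, and in SUM149 it read 12.46 and 12.59 with WHF against 12.69 and 13.05 untreated. Its WHF-treated arrays were below the untreated ones in 4 lines and met them in BT549. Only the fall in MDA-MB-231 passed (-1.39 ± 0.18, adjusted p = 0.000117), and the other MCM3 probe gave -1.65 ± 0.19 there. Among the ring subunits MCM2 to MCM7, all 6 were lower with WHF in MDA-MB-231 and 3 of them fell, which besides MCM3 were MCM4 (-0.996 ± 0.18) and MCM7 (-0.80 ± 0.18). In BT549 MCM5 rose (0.98 ± 0.23, adjusted p = 0.00546) and MCM2 rose (0.82 ± 0.29, adjusted p = 0.0476), whereas MCM3 and MCM6 gave -0.14 and -0.03. The 6 ring genes thus did not keep one direction in BT549, and MCM6 passed in 0 of the 5 lines.

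ORC1 is the largest subunit of the origin recognition complex, and its level varies over the cell cycle. ORC1 read 5.75 and 5.68 with WHF against 6.85 and 5.36 untreated in MDA-MB-231 cells, 8.49 and 8.93 with WHF against 7.49 and 7.74 untreated in BT549 cells, and 6.19 and 6.54 with WHF against 6.26 and 5.84 untreated in MDA-MB-157 cells. In MDA-MB-468 ORC1 read 7.26 and 7.29 with WHF against 7.90 and 8.22 untreated, and in SUM149 it read 7.92 and 8.36 with WHF against 7.22 and 7.88 untreated. BT549 was the line in which it rose (1.09 ± 0.36, adjusted p = 0.0340), with both WHF-treated arrays over both untreated arrays. In MDA-MB-231, ORC1 was detected on 1 of 2 arrays in each arm. CDC6, the loader that works with CDT1, was detected on 6 of 20 arrays, and read 5.15 and 5.87 with WHF against 6.21 and 5.91 untreated in MDA-MB-468, its brightest line. These values are given without a test.

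In the helicase activation group, 6 of 7 tested genes fell in MDA-MB-231 (median -1.15, or -1.05 with GINS4 at its bound). In MDA-MB-468 all 7 were lower and 1 fell (median -0.51), in BT549 2 rose and 2 fell (median 0.21), and 0 passed in MDA-MB-157 (median -0.22) and SUM149 (median 0.15). MCM10 links the helicase to polymerase alpha. MCM10 read 7.29 and 6.53 with WHF against 8.59 and 8.19 untreated in MDA-MB-231 cells, 9.49 and 9.52 with WHF against 8.82 and 8.81 untreated in BT549 cells, and 9.89 and 10.004 with WHF against 10.06 and 10.14 untreated in MDA-MB-157 cells. In MDA-MB-468 MCM10 read 9.13 and 9.56 with WHF against 10.03 and 10.01 untreated, and in SUM149 it read 9.56 and 9.83 with WHF against 9.40 and 9.69 untreated. The gene thus moved in opposite directions in 2 mesenchymal-like lines, with no overlap of the arms in either. It fell in MDA-MB-231 (-1.48 ± 0.22, adjusted p = 0.000455) and rose in BT549 (0.69 ± 0.22, adjusted p = 0.0313). A further MCM10 probe gave the same calls in these lines, with WHF-treated MDA-MB-231 cells at background, and also fell in MDA-MB-468 (-0.84 ± 0.22, adjusted p = 0.0470).

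CDC7 is the kinase that phosphorylates the MCM ring to fire origins. CDC7 read 7.75 and 7.72 with WHF against 8.88 and 8.69 untreated in MDA-MB-231 cells, 8.86 and 9.24 with WHF against 10.19 and 10.08 untreated in BT549 cells, and 8.60 and 8.71 with WHF against 8.78 and 8.96 untreated in MDA-MB-157 cells. In MDA-MB-468 CDC7 read 9.81 and 9.87 with WHF against 10.20 and 10.37 untreated, and in SUM149 it read 9.58 and 9.76 with WHF against 9.33 and 9.53 untreated. Here BT549 and MDA-MB-231 changed alike, and the signal of SUM149 lay slightly higher with WHF. CDC7 fell in BT549 (-1.09 ± 0.16, adjusted p = 0.000161) and in MDA-MB-231 (-1.05 ± 0.16, adjusted p = 0.000453). DBF4, its activating partner, was detected on 8 of 20 arrays, which include all 4 of BT549, and read 6.31 and 6.26 with WHF against 6.29 and 6.24 untreated in BT549. Those values differed by less than 0.1 between the arms.

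CDC45 is the helicase cofactor that joins the ring at firing. CDC45 read 9.53 and 8.63 with WHF against 10.07 and 9.82 untreated in MDA-MB-231 cells, 10.71 and 10.98 with WHF against 10.82 and 10.47 untreated in BT549 cells, and 10.45 and 10.40 with WHF against 10.46 and 10.49 untreated in MDA-MB-157 cells. In MDA-MB-468 CDC45 read 10.79 and 10.86 with WHF against 11.74 and 11.65 untreated, and in SUM149 it read 10.35 and 10.52 with WHF against 10.44 and 10.45 untreated. It fell in MDA-MB-468 (-0.86 ± 0.22, adjusted p = 0.0464) and in MDA-MB-231 (-0.87 ± 0.22, adjusted p = 0.0144), and its arms overlapped in BT549 and SUM149. GINS1 to GINS4 form the GINS complex. GINS2 fell in MDA-MB-231 (-1.15 ± 0.25) and rose in BT549 (0.64 ± 0.25), and GINS3 fell in MDA-MB-231 (-1.39 ± 0.21). GINS4 was not well above background in WHF-treated MDA-MB-231 cells and was at least 1.65-fold lower on the background-corrected scale and 1.25-fold without the correction (adjusted p = 0.00920).

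GINS1 parted from GINS2 in BT549. GINS1 read 5.47 and 6.06 with WHF against 5.68 and 5.75 untreated in MDA-MB-231 cells, 5.32 and 5.42 with WHF against 6.31 and 6.24 untreated in BT549 cells, and 5.27 and 5.73 with WHF against 5.57 and 6.13 untreated in MDA-MB-157 cells. In MDA-MB-468 GINS1 read 5.71 and 5.53 with WHF against 5.88 and 5.97 untreated, and in SUM149 it read 5.72 and 5.61 with WHF against 5.88 and 6.12 untreated. The signals were close to background, and in BT549 it was not well above background on either WHF-treated array. In BT549 it was lower with WHF, by at least 1.5-fold on the background-corrected scale and 1.19-fold without the correction (adjusted p = 0.00592), while in MDA-MB-231 the arms overlapped.

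Among polymerases and primase, 5 of 7 genes fell in MDA-MB-231 (median -0.79), 1 fell in MDA-MB-468 (median -0.39), and 2 rose in SUM149 (median 0.37) and 1 in BT549 (median 0.06). MDA-MB-157 gave 0 calls (median -0.15). POLA2 is the regulatory subunit of DNA polymerase alpha. POLA2 read 8.15 and 7.03 with WHF against 8.51 and 8.18 untreated in MDA-MB-231 cells, 10.78 and 10.85 with WHF against 10.11 and 9.96 untreated in BT549 cells, and 9.02 and 9.01 with WHF against 9.21 and 9.12 untreated in MDA-MB-157 cells. In MDA-MB-468 POLA2 read 9.67 and 9.97 with WHF against 10.43 and 10.41 untreated, and in SUM149 it read 10.95 and 11.28 with WHF against 9.78 and 10.24 untreated. Its WHF-treated arrays were the higher ones in SUM149 and BT549 and the lower ones in the other 3 lines. POLA2 rose in SUM149 (1.11 ± 0.27, adjusted p = 0.00747) and BT549 (0.78 ± 0.27, adjusted p = 0.0417) and fell in MDA-MB-231 (-0.75 ± 0.27, adjusted p = 0.0674).

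POLA1 encodes the catalytic subunit of the same enzyme. POLA1 read 8.76 and 7.85 with WHF against 9.26 and 9.04 untreated in MDA-MB-231 cells, 8.94 and 9.52 with WHF against 9.70 and 9.41 untreated in BT549 cells, and 9.61 and 9.92 with WHF against 10.21 and 10.28 untreated in MDA-MB-157 cells. In MDA-MB-468 POLA1 read 9.55 and 9.77 with WHF against 10.51 and 10.35 untreated, and in SUM149 it read 8.13 and 8.59 with WHF against 8.46 and 8.65 untreated. It was lower with WHF in the means of all 5 lines, though the arms overlapped in BT549 and SUM149. The fall passed only in MDA-MB-231 (-0.84 ± 0.27, adjusted p = 0.0388), and the difference between the lines did not pass the F test (adjusted p = 0.499).

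POLE is the catalytic subunit of the leading-strand polymerase epsilon and POLE2 its second subunit. POLE read 7.37 and 7.21 with WHF against 8.01 and 8.14 untreated in MDA-MB-231 cells, 8.14 and 8.45 with WHF against 8.76 and 8.23 untreated in BT549 cells, and 8.09 and 8.33 with WHF against 8.34 and 8.49 untreated in MDA-MB-157 cells. In MDA-MB-468 POLE read 8.65 and 8.81 with WHF against 9.22 and 9.49 untreated, and in SUM149 it read 8.65 and 8.41 with WHF against 8.38 and 8.53 untreated. POLE fell in MDA-MB-231 (-0.79 ± 0.19, adjusted p = 0.0102) and narrowly in MDA-MB-468 (-0.62 ± 0.19, adjusted p = 0.0901, and 0.135 with the replicate letter as a block). POLE2 read 8.85 and 8.73 with WHF against 9.91 and 9.79 untreated in MDA-MB-231 cells, 8.95 and 9.43 with WHF against 9.23 and 9.43 untreated in BT549 cells, and 8.79 and 8.71 with WHF against 8.45 and 8.19 untreated in MDA-MB-157 cells. In MDA-MB-468 POLE2 read 8.76 and 8.88 with WHF against 9.06 and 8.79 untreated, and in SUM149 it read 10.02 and 10.06 with WHF against 9.60 and 9.69 untreated. POLE2 fell in MDA-MB-231 (-1.06 ± 0.17, adjusted p = 0.000784), and in MDA-MB-157 and SUM149 both WHF-treated arrays lay over both untreated arrays with changes of 0.42 ± 0.17 and 0.40 ± 0.17 that did not pass. POLD1, the catalytic subunit of polymerase delta, fell in MDA-MB-231 (-1.03 ± 0.17) and rose in SUM149 (0.84 ± 0.17).

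In the group of the clamp, its loaders and lagging-strand enzymes, 5 of 8 genes fell in MDA-MB-231 (median -0.55), 2 fell in MDA-MB-468 (median -0.50), 3 rose in SUM149 (median 0.30), and 2 rose and 1 fell in BT549 (median 0.20). In MDA-MB-157 0 passed (median -0.15). FEN1 is the nuclease that trims the flaps of lagging fragments. FEN1 read 10.03 and 9.81 with WHF against 11.74 and 11.14 untreated in MDA-MB-231 cells, 11.68 and 11.26 with WHF against 12.05 and 11.96 untreated in BT549 cells, and 11.47 and 11.26 with WHF against 11.78 and 11.46 untreated in MDA-MB-157 cells. In MDA-MB-468 FEN1 read 11.93 and 11.75 with WHF against 12.67 and 12.37 untreated, and in SUM149 it read 12.03 and 12.39 with WHF against 11.82 and 12.08 untreated. It fell in MDA-MB-231 (-1.52 ± 0.22, adjusted p = 0.000346) and in BT549 (-0.53 ± 0.22, adjusted p = 0.0866). The other FEN1 probe fell in the same lines and also in MDA-MB-468 (-0.73 ± 0.22, adjusted p = 0.0813).

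PCNA is the sliding clamp. PCNA read 10.83 and 10.32 with WHF against 11.61 and 10.999 untreated in MDA-MB-231 cells, 11.86 and 11.99 with WHF against 12.21 and 12.13 untreated in BT549 cells, and 11.37 and 11.35 with WHF against 11.70 and 11.49 untreated in MDA-MB-157 cells. In MDA-MB-468 PCNA read 13.03 and 13.01 with WHF against 13.70 and 13.41 untreated, and in SUM149 it read 12.27 and 12.54 with WHF against 12.23 and 12.22 untreated. Its WHF-treated arrays were lower in 4 lines and higher in SUM149, and the change passed in MDA-MB-231 (-0.73 ± 0.20, adjusted p = 0.0227). A further PCNA probe fell in BT549 (-0.66 ± 0.20, adjusted p = 0.0250) and not in MDA-MB-231 (-0.40 ± 0.20).

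DSCC1 belongs to an alternative clamp loader that acts in sister chromatid cohesion. DSCC1 read 7.78 and 7.43 with WHF against 8.43 and 8.06 untreated in MDA-MB-231 cells, 10.51 and 10.65 with WHF against 9.83 and 9.86 untreated in BT549 cells, and 10.09 and 9.81 with WHF against 10.17 and 9.91 untreated in MDA-MB-157 cells. In MDA-MB-468 DSCC1 read 9.29 and 9.44 with WHF against 10.41 and 10.09 untreated, and in SUM149 it read 9.73 and 10.10 with WHF against 9.59 and 9.58 untreated. It rose in BT549 (0.73 ± 0.19, adjusted p = 0.0103) and fell in MDA-MB-468 (-0.89 ± 0.19, adjusted p = 0.0175) and MDA-MB-231 (-0.64 ± 0.19, adjusted p = 0.0307). RFC5 is a subunit of the canonical loader. RFC5 read 10.19 and 9.61 with WHF against 10.48 and 10.23 untreated in MDA-MB-231 cells, 10.64 and 10.65 with WHF against 10.66 and 10.60 untreated in BT549 cells, and 9.90 and 9.79 with WHF against 10.10 and 10.04 untreated in MDA-MB-157 cells. In MDA-MB-468 RFC5 read 10.22 and 10.17 with WHF against 10.61 and 10.74 untreated, and in SUM149 it read 10.79 and 10.95 with WHF against 10.16 and 10.35 untreated. It rose in SUM149 (0.62 ± 0.17, adjusted p = 0.0180), fell in MDA-MB-231 (-0.46 ± 0.17, adjusted p = 0.0859), and differed by 0.02 in BT549. LIG1, the ligase of the lagging strand, fell in MDA-MB-468 (-0.65 ± 0.15) and rose in SUM149 (0.51 ± 0.15) and gave -0.03 ± 0.15 in MDA-MB-231.

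RPA1, RPA2 and RPA3 form the trimer that coats single-stranded DNA. By the probes with the highest mean, 0 of the 3 passed in MDA-MB-231 (median -0.21). In SUM149, 2 of 3 rose (median 0.48), in BT549 1 rose (median 0.26), in MDA-MB-157 1 fell (median -0.25), and in MDA-MB-468 0 passed (median 0.10). RPA2 read 11.12 and 11.19 with WHF against 11.40 and 11.09 untreated in MDA-MB-231 cells, 12.45 and 12.31 with WHF against 12.06 and 11.82 untreated in BT549 cells, and 11.10 and 11.18 with WHF against 11.67 and 11.71 untreated in MDA-MB-157 cells. In MDA-MB-468 RPA2 read 10.76 and 10.84 with WHF against 11.37 and 11.15 untreated, and in SUM149 it read 12.12 and 12.14 with WHF against 11.37 and 11.70 untreated. RPA2 thus read higher with WHF in SUM149 and BT549 and lower in MDA-MB-157 and MDA-MB-468. It rose in SUM149 (0.60 ± 0.16, adjusted p = 0.0134) and BT549 (0.44 ± 0.16, adjusted p = 0.0530) and fell in MDA-MB-157 (-0.55 ± 0.16, adjusted p = 0.0617).

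RPA3 read 11.81 and 11.71 with WHF against 12.08 and 12.21 untreated in MDA-MB-231 cells, 12.31 and 12.69 with WHF against 12.13 and 12.35 untreated in BT549 cells, and 12.67 and 12.59 with WHF against 12.63 and 12.61 untreated in MDA-MB-157 cells. In MDA-MB-468 RPA3 read 12.98 and 12.78 with WHF against 12.76 and 12.76 untreated, and in SUM149 it read 12.37 and 12.49 with WHF against 11.79 and 12.10 untreated. RPA3 rose in SUM149 (0.48 ± 0.16, adjusted p = 0.0408). RPA1 read 11.57 and 11.55 with WHF against 11.93 and 11.62 untreated in MDA-MB-231 cells, 12.42 and 12.46 with WHF against 12.78 and 12.73 untreated in BT549 cells, and 10.77 and 10.74 with WHF against 11.18 and 10.84 untreated in MDA-MB-157 cells. In MDA-MB-468 RPA1 read 10.96 and 11.01 with WHF against 10.98 and 10.79 untreated, and in SUM149 it read 12.32 and 12.34 with WHF against 11.91 and 12.08 untreated. By this probe RPA1 passed in 0 lines. The other 2 RPA1 probes fell in MDA-MB-231 (-0.38 ± 0.13 and -0.50 ± 0.16) and BT549 (-0.38 ± 0.13 and -0.51 ± 0.16).

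Of the nucleotide supply genes, all 4 fell in MDA-MB-468 (median -0.92), 3 of 4 fell in MDA-MB-231 (median -0.74), and 3 of 4 rose in SUM149 (median 0.52). In MDA-MB-157 1 fell (median -0.38), and in BT549 0 passed (median -0.24). TYMS, thymidylate synthase, makes the thymidine nucleotide from its uridine counterpart. TYMS read 11.15 and 10.61 with WHF against 11.63 and 11.28 untreated in MDA-MB-231 cells, 11.89 and 12.04 with WHF against 12.40 and 12.11 untreated in BT549 cells, and 10.98 and 10.75 with WHF against 11.61 and 11.33 untreated in MDA-MB-157 cells. In MDA-MB-468 TYMS read 12.12 and 12.12 with WHF against 13.13 and 13.05 untreated, and in SUM149 it read 12.80 and 12.68 with WHF against 11.82 and 12.03 untreated. TYMS fell in 3 lines and rose in SUM149, with no overlap of the arms in any of the 5. It rose in SUM149 (0.82 ± 0.19, adjusted p = 0.00628). It fell in MDA-MB-468 (-0.97 ± 0.19, adjusted p = 0.0115), MDA-MB-231 (-0.57 ± 0.19, adjusted p = 0.0531) and MDA-MB-157 (-0.61 ± 0.19, adjusted p = 0.0845).

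TK1, thymidine kinase, salvages thymidine and is made mainly in S phase. TK1 read 9.57 and 9.39 with WHF against 10.52 and 10.67 untreated in MDA-MB-231 cells, 10.33 and 10.37 with WHF against 10.29 and 10.80 untreated in BT549 cells, and 10.97 and 10.94 with WHF against 11.35 and 11.28 untreated in MDA-MB-157 cells. In MDA-MB-468 TK1 read 9.58 and 9.74 with WHF against 10.60 and 10.44 untreated, and in SUM149 it read 11.35 and 11.50 with WHF against 10.85 and 11.03 untreated. It fell in MDA-MB-231 (-1.12 ± 0.17, adjusted p = 0.000428) and MDA-MB-468 (-0.86 ± 0.17, adjusted p = 0.00944) and rose in SUM149 (0.49 ± 0.17, adjusted p = 0.0450). RRM1 and RRM2 form ribonucleotide reductase, which makes deoxynucleotides. RRM2 read 8.01 and 7.62 with WHF against 9.05 and 8.40 untreated in MDA-MB-231 cells, 8.52 and 9.28 with WHF against 9.25 and 9.56 untreated in BT549 cells, and 9.29 and 9.18 with WHF against 9.89 and 9.39 untreated in MDA-MB-157 cells. In MDA-MB-468 RRM2 read 9.09 and 9.27 with WHF against 10.14 and 10.42 untreated, and in SUM149 it read 10.79 and 11.37 with WHF against 10.39 and 10.80 untreated. RRM2 fell in MDA-MB-468 (-1.10 ± 0.29, adjusted p = 0.0491) and MDA-MB-231 (-0.91 ± 0.29, adjusted p = 0.0404), and in SUM149 its arms overlapped (0.48 ± 0.29). RRM1 fell in MDA-MB-468 (-0.66 ± 0.16) and rose in SUM149 (0.54 ± 0.16).

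**Figure D2:**
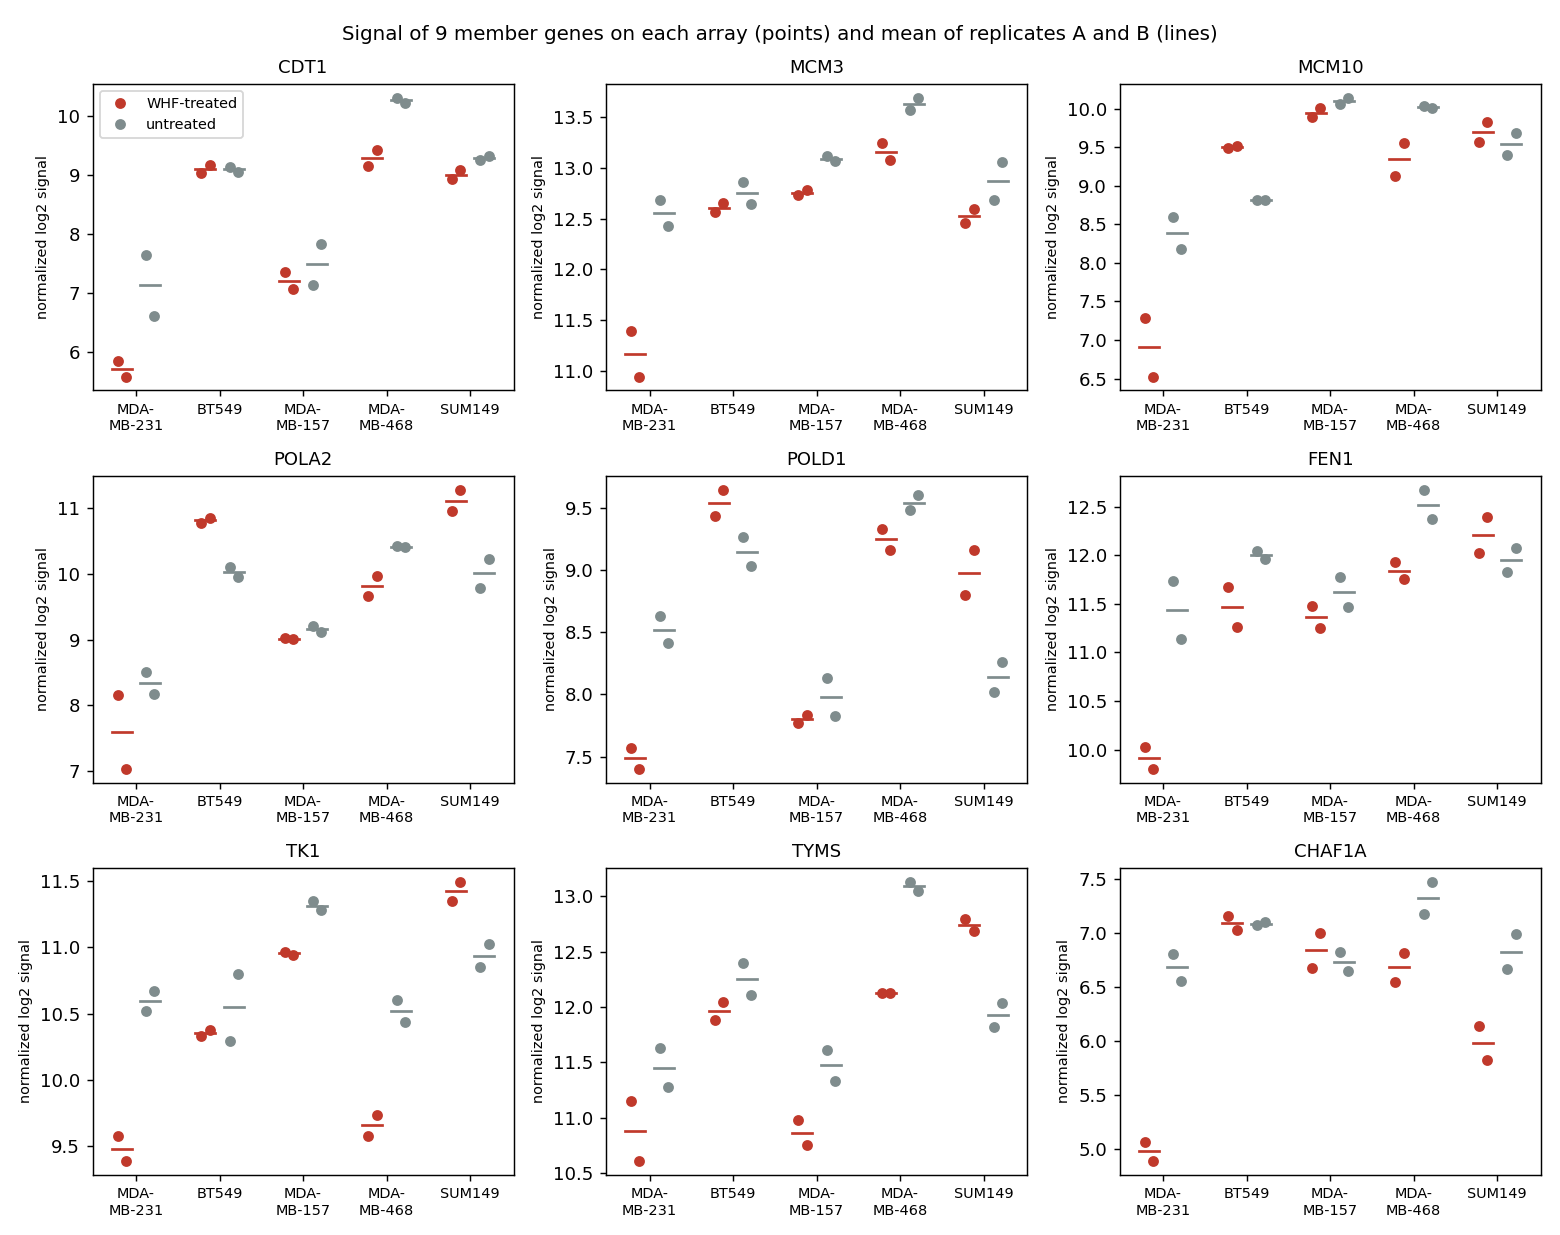
Normalized log2 signal of 9 member genes on each of the 20 arrays (points, with WHF-treated cells in red left of untreated cells in grey) and the mean of replicates A and B (lines), by cell line, each panel on its own scale. TYMS, TK1 and POLD1 lie higher with WHF in SUM149 and lower with WHF in MDA-MB-231, and MCM10 and POLA2 lie higher with WHF in BT549.

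In the G1/S control group E2F2 fell in MDA-MB-231 and MDA-MB-468, and E2F1 and CCNE1 passed in 0 lines. The medians of the 3 genes were -0.02 in MDA-MB-231, 0.16 in BT549, 0.07 in MDA-MB-157, -0.52 in MDA-MB-468 and 0.39 in SUM149. E2F1 and E2F2 are activating E2F factors, and CCNE1 encodes cyclin E1. E2F2 read 5.71 and 5.32 with WHF against 7.48 and 6.82 untreated in MDA-MB-231 cells, 9.41 and 9.59 with WHF against 10.28 and 9.69 untreated in BT549 cells, and 8.51 and 8.78 with WHF against 9.36 and 9.21 untreated in MDA-MB-157 cells. In MDA-MB-468 E2F2 read 11.16 and 11.48 with WHF against 12.58 and 12.26 untreated, and in SUM149 it read 11.37 and 11.09 with WHF against 10.67 and 10.94 untreated. E2F2 was not well above background in WHF-treated MDA-MB-231 cells, where it was at least 2.63-fold lower on the background-corrected scale and 1.61-fold without the correction (adjusted p = 0.000446). It fell in MDA-MB-468 (-1.10 ± 0.25, adjusted p = 0.0212), where untreated cells had the highest level of the 5 lines, and it gave 0.42 ± 0.25 in SUM149, the line in which both WHF-treated arrays were the higher ones.

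E2F1 read 7.71 and 7.45 with WHF against 7.35 and 6.72 untreated in MDA-MB-231 cells, 7.66 and 8.29 with WHF against 7.75 and 7.36 untreated in BT549 cells, and 6.91 and 7.04 with WHF against 6.70 and 7.10 untreated in MDA-MB-157 cells. In MDA-MB-468 E2F1 read 7.31 and 7.54 with WHF against 7.19 and 7.59 untreated, and in SUM149 it read 5.47 and 7.72 with WHF against 6.53 and 7.06 untreated. The replicates of E2F1 differed by up to 2.25 units within an arm, in WHF-treated SUM149 cells, and its changes carried a standard error of 0.49. CCNE1 gave changes between -0.52 in MDA-MB-468 and 0.39 in SUM149. Neither gene differed between the lines in its response by the F test.

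Of the 4 chromatin genes 3 fell in MDA-MB-231 (median -1.12, or -0.95 with CHAF1A at its bound), 1 fell in MDA-MB-468 (median -0.33), 1 fell in BT549 (median 0.09), 1 rose and 1 fell in SUM149 (median 0.16), and 0 passed in MDA-MB-157 (median 0.05). CHAF1A and CHAF1B are subunits of the chromatin assembly factor that places histones behind the fork. CHAF1A read 5.06 and 4.89 with WHF against 6.80 and 6.55 untreated in MDA-MB-231 cells, 7.15 and 7.02 with WHF against 7.07 and 7.10 untreated in BT549 cells, and 6.67 and 7.0 with WHF against 6.82 and 6.64 untreated in MDA-MB-157 cells. In MDA-MB-468 CHAF1A read 6.54 and 6.81 with WHF against 7.17 and 7.47 untreated, and in SUM149 it read 6.14 and 5.82 with WHF against 6.66 and 6.99 untreated. By the probe with the highest mean of each gene, it was the one member that fell in both basal-like lines. MCM7 fell in MDA-MB-468 by that probe and in SUM149 by another. CHAF1A fell in SUM149 (-0.85 ± 0.19, adjusted p = 0.00386) and in MDA-MB-468 (-0.64 ± 0.19, adjusted p = 0.0749, and 0.102 with the replicate letter as a block). In WHF-treated MDA-MB-231 cells it was not well above background and was at least 1.90-fold lower on the background-corrected scale and 1.33-fold without the correction (adjusted p = 3.51e-05). CHAF1B, its partner, went the other way in SUM149, where it rose (0.60 ± 0.20, adjusted p = 0.0403), and fell in MDA-MB-231 (-0.97 ± 0.20, adjusted p = 0.00429).

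UHRF1, a chromatin protein, brings maintenance DNA methylation to new strands. UHRF1 read 9.78 and 9.04 with WHF against 10.80 and 10.54 untreated in MDA-MB-231 cells, 11.06 and 11.47 with WHF against 11.77 and 11.85 untreated in BT549 cells, and 11.08 and 11.10 with WHF against 11.20 and 10.98 untreated in MDA-MB-157 cells. In MDA-MB-468 UHRF1 read 10.77 and 10.95 with WHF against 11.16 and 11.21 untreated, and in SUM149 it read 10.93 and 11.31 with WHF against 11.11 and 10.96 untreated. It fell in MDA-MB-231 (-1.26 ± 0.22, adjusted p = 0.00121) and BT549 (-0.54 ± 0.22, adjusted p = 0.0790) and moved by 0.08 in SUM149. SLBP, which binds the end of histone messages, passed in 0 lines, with changes between -0.26 and 0.23.

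In the checkpoint and repair group 3 of 4 genes fell in MDA-MB-231 (median -0.71), 1 fell in MDA-MB-468 (median -0.51), 1 fell in MDA-MB-157 (median -0.07), 1 rose and 1 fell in BT549 (median 0.18), and 0 passed in SUM149 (median 0.20). BRCA1 and BARD1 form a ubiquitin ligase that acts in repair by homologous recombination and protects forks. BARD1 read 8.07 and 7.58 with WHF against 8.55 and 8.32 untreated in MDA-MB-231 cells, 10.36 and 10.28 with WHF against 10.20 and 10.15 untreated in BT549 cells, and 8.34 and 8.46 with WHF against 9.08 and 9.21 untreated in MDA-MB-157 cells. In MDA-MB-468 BARD1 read 9.55 and 9.59 with WHF against 10.02 and 10.37 untreated, and in SUM149 it read 9.73 and 9.22 with WHF against 9.57 and 9.63 untreated. BARD1 fell in MDA-MB-157 (-0.75 ± 0.19, adjusted p = 0.0369), MDA-MB-231 (-0.61 ± 0.19, adjusted p = 0.0421) and MDA-MB-468 (-0.63 ± 0.19, adjusted p = 0.0966). BRCA1 read 6.95 and 6.58 with WHF against 7.41 and 7.73 untreated in MDA-MB-231 cells, 7.57 and 8.004 with WHF against 8.82 and 8.40 untreated in BT549 cells, and 7.93 and 7.74 with WHF against 7.76 and 7.81 untreated in MDA-MB-157 cells. In MDA-MB-468 BRCA1 read 7.54 and 7.96 with WHF against 8.22 and 8.05 untreated, and in SUM149 it read 7.51 and 7.86 with WHF against 6.78 and 7.55 untreated. BRCA1 fell in BT549 (-0.82 ± 0.26, adjusted p = 0.0265) and MDA-MB-231 (-0.81 ± 0.26, adjusted p = 0.0399), and the partners both fell in MDA-MB-231 only. The BRCA1 probes differed in sign in SUM149, at 0.52 ± 0.26 and -0.55 ± 0.27, where neither passed.

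UNG removes uracil from DNA. UNG read 10.56 and 10.42 with WHF against 11.72 and 11.11 untreated in MDA-MB-231 cells, 11.53 and 11.43 with WHF against 11.15 and 10.83 untreated in BT549 cells, and 11.05 and 11.08 with WHF against 11.18 and 10.92 untreated in MDA-MB-157 cells. In MDA-MB-468 UNG read 11.37 and 11.18 with WHF against 11.64 and 11.68 untreated, and in SUM149 it read 10.57 and 10.80 with WHF against 10.99 and 11.18 untreated. It fell in MDA-MB-231 (-0.92 ± 0.19, adjusted p = 0.00423) and rose in BT549 (0.49 ± 0.19, adjusted p = 0.0730), and a further UNG probe passed in 0 lines, with 0.03 ± 0.28 in MDA-MB-231. CLSPN, the adaptor of the ATR checkpoint, passed in 0 lines, with -0.73 ± 0.32 in MDA-MB-468 and 0.66 ± 0.32 in SUM149.

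**Figure D3:**
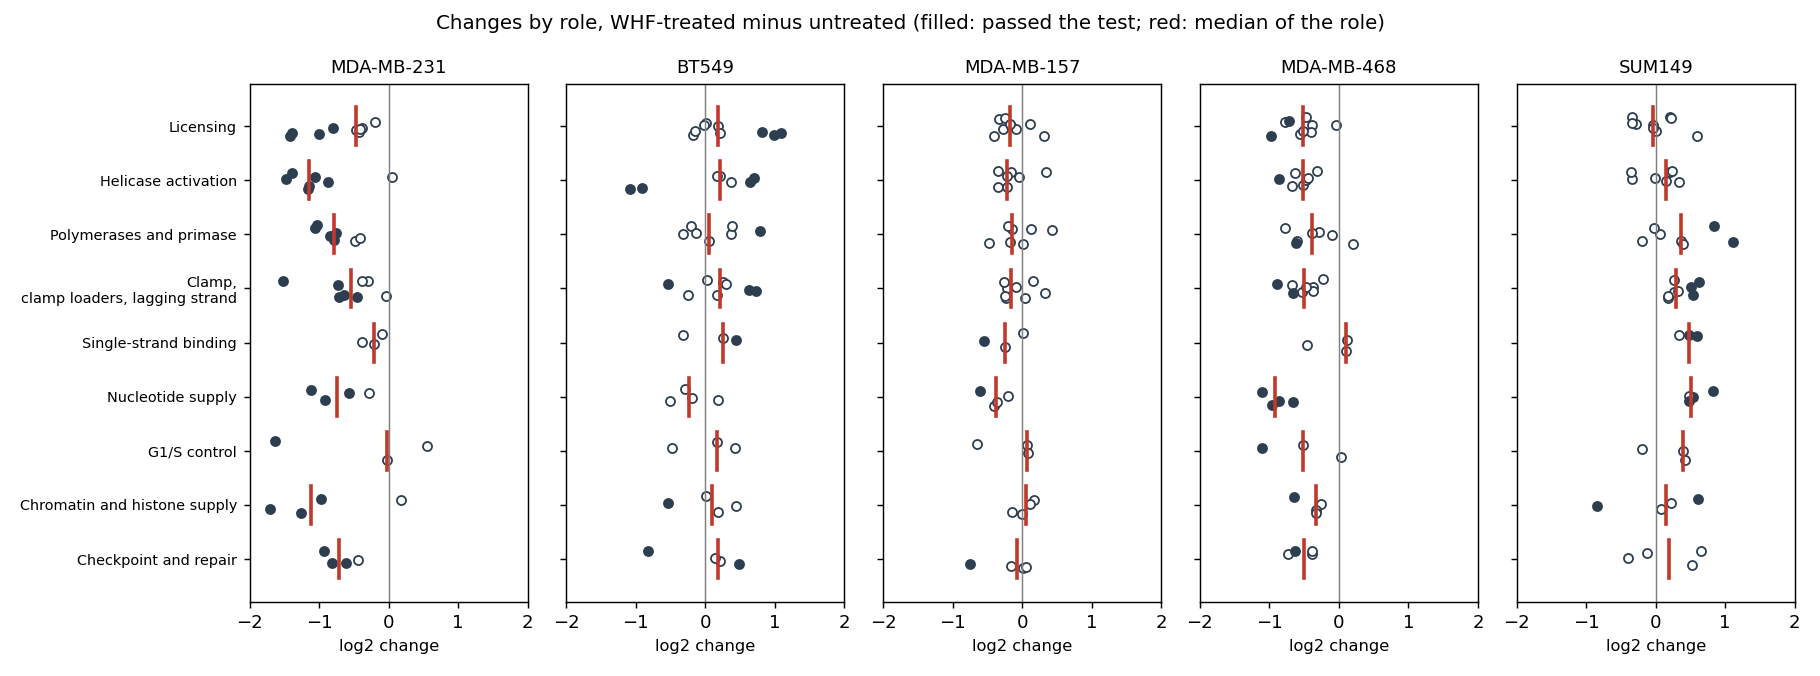
Log2 change (x axis, WHF-treated minus untreated) of each tested member gene by role (rows) in each line (panels), filled where it passed the test, with the median of the role as a red line. The nucleotide supply genes lie at a median of -0.92 in MDA-MB-468 and 0.52 in SUM149, and the helicase activation genes at -1.15 in MDA-MB-231.

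The lines were then compared with each other. The line-by-treatment F test asks whether the response of a probe differs among the 5 lines beyond the spread between replicate cultures. It passed for 51 of 70 member probes and 38 of 49 genes, where 41.1% of all probes passed. The highest F values were 16.5 for POLD1, 15.5 for CHAF1A, 13.9 for TK1, 13.7 for MCM10, 12.6 for CDC7, 12.4 for TYMS, 12.1 for DSCC1 and 12.1 for POLE2. By the probe with the highest mean of each gene, 40 genes passed in at least 1 line. The 9 without a call by that probe were ORC6, MCM6, PRIM1, POLD3, RPA1, CCNE1, E2F1, SLBP and CLSPN. Further probes of ORC6, PRIM1 and RPA1 did pass in 1 line or more. Among the 40 genes, 15 fell in 2 or more lines, and 13 fell in 1 line or more and rose in another. These 13 were MCM10, GINS2, POLA2, POLD1, RFC5, DSCC1, LIG1, RPA2, RRM1, TYMS, TK1, CHAF1B and UNG. Of the 30 genes that fell in MDA-MB-231 and the 13 that fell in MDA-MB-468, 11 were shared. Of the 10 genes that rose in BT549 and the 11 that rose in SUM149, POLA2 and RPA2 were shared. The overlap over all tested genes was not computed, so these shared counts are a description and are not read as many or few. Each subtype named in the study held a line with mostly lower member genes (46 of 49 in MDA-MB-231 and 45 in MDA-MB-468) and a line with mostly higher ones (32 of 49 in BT549 and 34 in SUM149). The third mesenchymal-like line, MDA-MB-157, had 33 lower and 16 higher.

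Over the 5 lines together, with the line as the replicate, 0 of 70 member probes passed in either direction, where 0.0566% of all probes fell and 0.0189% rose. The median over the 49 genes was -0.15, and 39 of them were lower with WHF. At an unadjusted p under 0.05, 14 of 70 member probes (11 genes) were lower and 0 higher, where 10% of all probes were lower and 9.32% higher, and the smallest p was that of POLA1 (-0.52 ± 0.14, unadjusted p = 0.00563, adjusted p = 0.156). Of the 49 genes, 3 were lower in the means of all 5 lines, 17 in 4 and 19 in 3, and 0 were higher in all 5. The genes lower in all 5 lines were MCM3, MCM6 and POLA1. When the 10 pairs of cultures with the same letter were the replicates and each line and letter a block, 22 member probes of 16 genes were lower and passed and 0 were higher, where 12.9% of all probes passed as lower and 12.4% as higher. That fit counts the 2 cultures of a line as separate replicates, so it differs from the fit over lines in its replicates as well as its block.

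Some genes had probes that did not give the same answer. The ORC6 probe with the highest mean lay between 14.97 and 15.62 on all 20 arrays, near the top of the scale, and passed in 0 lines. Its bead signal reached 58737 units, against 67692 for the brightest probe on any array. The other ORC6 probe fell in MDA-MB-231 (-1.03 ± 0.19, adjusted p = 0.00180) and MDA-MB-468 (-0.74 ± 0.19, adjusted p = 0.0426). One MCM7 probe rose in BT549 (0.86 ± 0.25, adjusted p = 0.0188) and fell in SUM149 (-0.62 ± 0.25, adjusted p = 0.0814), where the MCM7 probe with the highest mean gave 0.21 ± 0.18 and -0.04 ± 0.18. One RFC3 probe was at background in WHF-treated SUM149 cells and at least 1.77-fold lower there on the background-corrected scale and 1.29-fold without the correction (adjusted p = 0.000270), while the RFC3 probe with the highest mean gave 0.27 ± 0.19 in SUM149 and rose in BT549 (0.62 ± 0.19). In MDA-MB-468 the second RFC2 probe fell (-0.95 ± 0.26, adjusted p = 0.0572) and the first gave -0.23 ± 0.18. The second probes of PRIM1 and RFC4 also added calls, a fall in MDA-MB-231 (-0.73 ± 0.23) and a rise in SUM149 (0.44 ± 0.15). Which transcript form each probe reads was not resolved here.

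**Figure D4:**
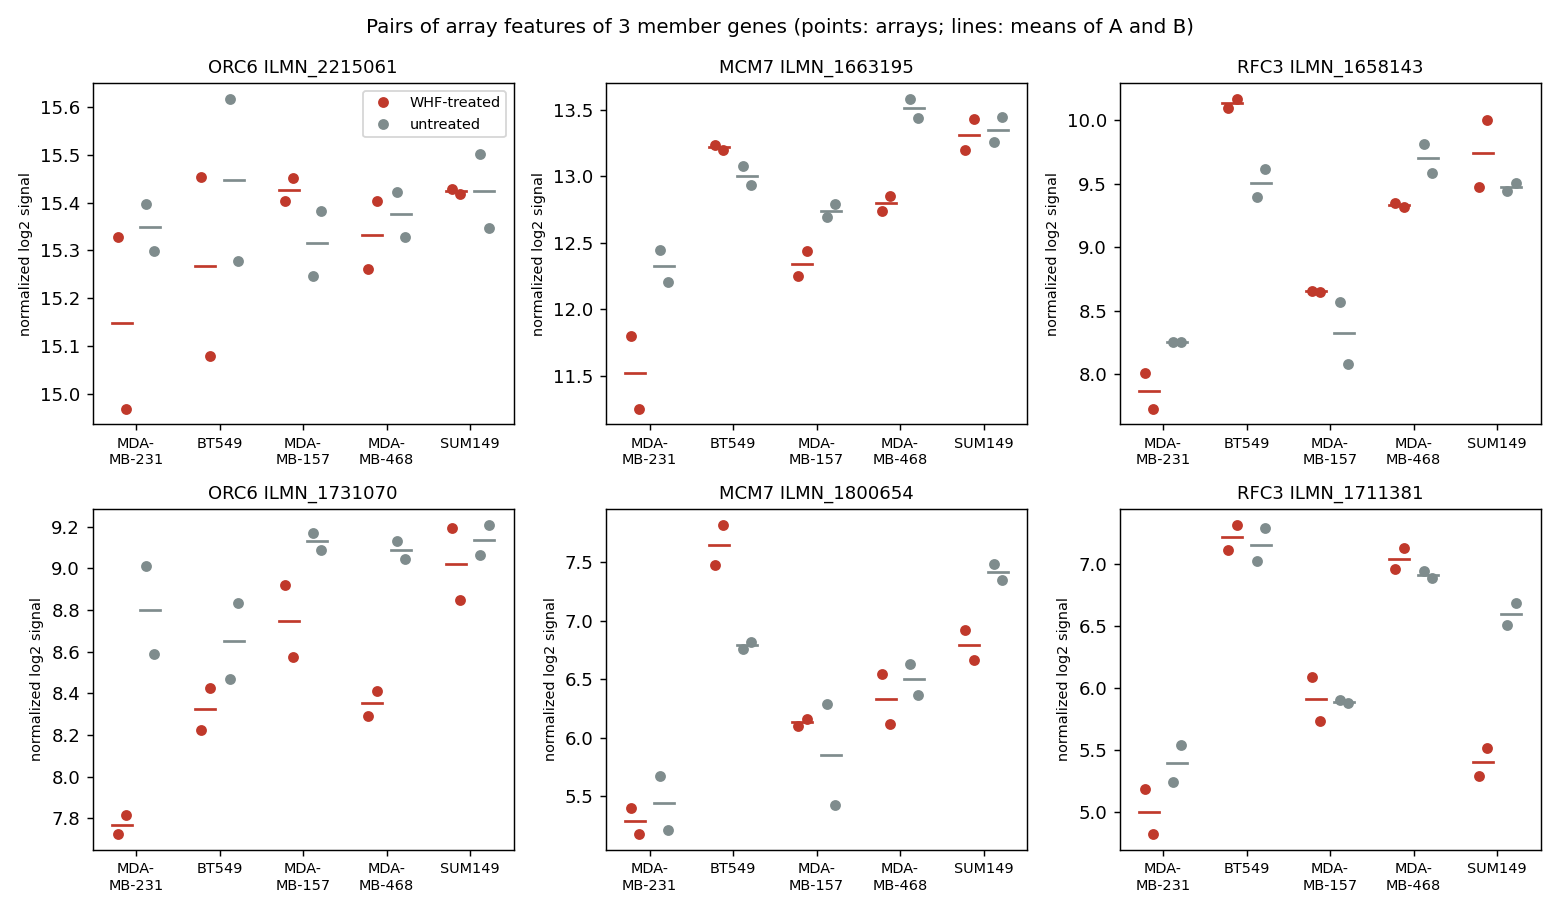
Normalized log2 signal on each array (points, WHF-treated in red left of untreated in grey) and means of A and B (lines) for a pair of probes of ORC6, MCM7 and RFC3, the one with the highest mean in the top row, each panel on its own scale. The lower ORC6 probe falls in MDA-MB-231 and MDA-MB-468, where the upper one stays between 14.97 and 15.42, and the lower RFC3 probe passes the test only in SUM149.

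The lines also differed before treatment. The F test over the 5 untreated groups passed for 66 of 70 member probes and 46 of 49 genes, where 86.9% of all probes passed, and the exceptions by gene were ORC6, GINS1 and E2F1. Untreated MDA-MB-468 had the highest level of 35 of 51 genes and untreated MDA-MB-231 the lowest of 30. The same counts over all genes were not computed, so these are a description and are not read as many or few. Lines on separate chips cannot be told apart from the chips. E2F2 varied most. Its untreated level was 12.42 in MDA-MB-468, 10.81 in SUM149, 9.99 in BT549, 9.29 in MDA-MB-157 and 7.15 in MDA-MB-231, a range of 5.27 units or 38.5-fold. That fold depends on the background correction and is smaller without it. The uncorrected bead signals of E2F2 were 5009 and 4686 in untreated MDA-MB-468 and 267 and 214 in untreated MDA-MB-231. CDT1 followed with 10.27 in MDA-MB-468, 9.29 in SUM149, 9.10 in BT549, 7.49 in MDA-MB-157 and 7.13 in MDA-MB-231, and the lower pair differed by less than the spread of their replicates (SD 0.49 and 0.73, n = 2 each). CCNE1 had another order, with 10.99 in MDA-MB-157, 9.96 in MDA-MB-468, 9.0 in SUM149, 8.37 in MDA-MB-231 and 8.06 in BT549.

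Pairs on a shared chip were compared within it. Untreated MDA-MB-468 exceeded untreated SUM149 in 41 of 70 member probes and 31 of 49 genes, against 28.1% of all probes, and was lower in 7 probes and 4 genes, against 28.6% of all. Without untreated replicate A of SUM149, 27 probes were higher. The widest differences were those of CHAF1B (2.28 ± 0.20), POLA1 (1.87 ± 0.27), MCM6 (1.75 ± 0.20) and E2F2 (1.61 ± 0.25), and the genes lower in MDA-MB-468 were POLE2, RFC2, RPA1 and TK1. Untreated BT549 exceeded untreated MDA-MB-157 in 31 probes and 20 genes, against 30.3% of all probes, and was lower in 11 probes and 8 genes, against 27.8% of all (7 probes without untreated replicate A of BT549, and also 7 without that of MDA-MB-157). CDT1 (1.61 ± 0.27) and ORC1 (1.57 ± 0.36) were higher in BT549, and CCNE1 was lower there by 2.93 ± 0.19.

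**Figure D5:**
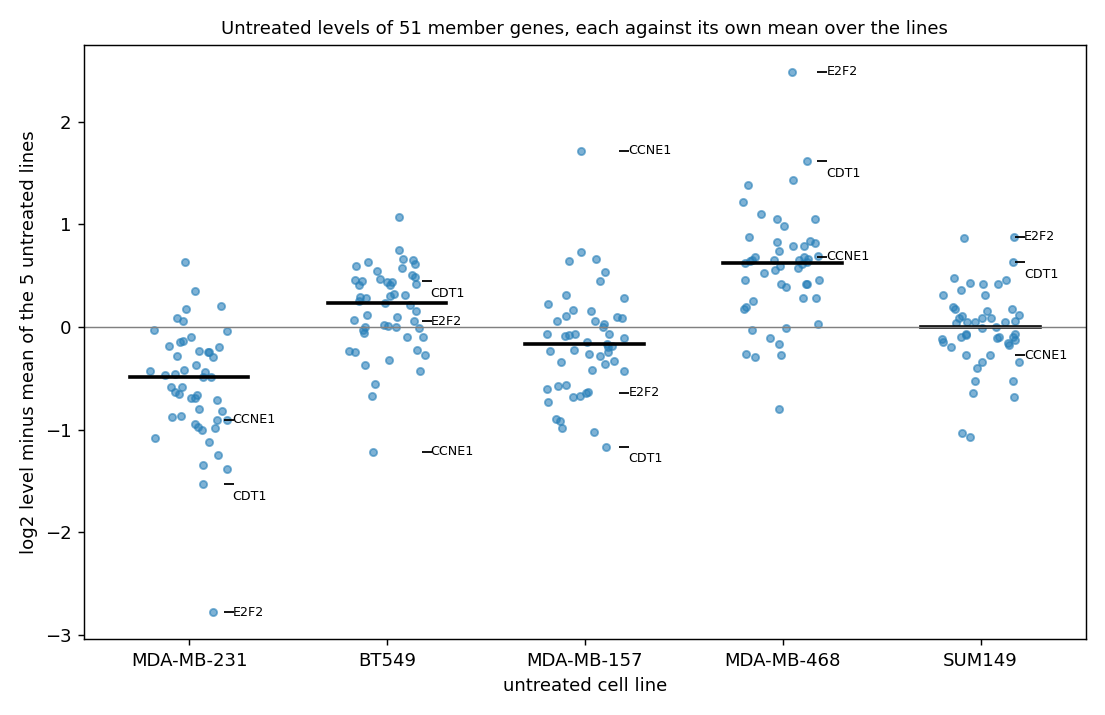
Untreated log2 level of each of 51 member genes (points) minus its own mean over the 5 untreated lines, by line, with the median as a black line and E2F2, CDT1 and CCNE1 named. E2F2 spans 5.27 units between MDA-MB-468 and MDA-MB-231, and CCNE1 stands highest in MDA-MB-157.

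Further genes of the pathway outside the 52 were read from lists chosen in the same way. Of 30 measured genes in a list of other replication genes, 8 fell and 0 rose in MDA-MB-231, 7 fell and 0 rose in MDA-MB-468, 3 fell and 1 rose in MDA-MB-157, 8 rose and 2 fell in BT549, and 7 rose and 4 fell in SUM149. The shares of all probes are those given above for each line, from 2.99% to 18.2% lower and from 3.17% to 16.6% higher. Against them more of these genes fell in MDA-MB-231 and MDA-MB-468 (8 and 7 of 30, with 13.3% and 2.99% of all probes). More also fell in MDA-MB-157 (3 of 30, with 4.35%) and more rose in BT549 and SUM149 (8 and 7 of 30, with 16.6% and 14.5%). No test of a list was made. Their medians were -0.15, -0.38, -0.14, 0.22 and 0.07 in that order of lines. ASF1B, a histone chaperone that hands histones to the chromatin assembly factor, fell in MDA-MB-231 (-1.79 ± 0.19), BT549 (-1.004 ± 0.19), MDA-MB-157 (-0.74 ± 0.19) and MDA-MB-468 (-0.62 ± 0.19), and gave 0.30 ± 0.19 in SUM149. NASP, a histone chaperone as well, fell in MDA-MB-157 (-0.58 ± 0.17), MDA-MB-468 (-0.63 ± 0.17) and MDA-MB-231 (-1.16 ± 0.17). ORC4, an origin recognition subunit, fell in SUM149 (-0.76 ± 0.22).

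Among 24 measured regulators of the G1/S step, 3 fell and 3 rose in MDA-MB-231, 8 fell and 2 rose in BT549, 2 fell and 2 rose in MDA-MB-157, 4 fell and 0 rose in MDA-MB-468, and 8 fell and 4 rose in SUM149. In MDA-MB-231 these counts lay near the 13.3% of all probes that fell and the 11.4% that rose. Of all probes 18.2% fell and 16.6% rose in BT549, and 4.35% fell and 4.56% rose in MDA-MB-157. In MDA-MB-468 2.99% fell and 3.17% rose, and in SUM149 17.8% fell and 14.5% rose. Against these shares more of the regulators fell in BT549, MDA-MB-468 and SUM149, and no test of a list was made. CDK6, a kinase that acts with D cyclins, fell in SUM149 (-2.09 ± 0.44) and BT549 (-1.47 ± 0.44). TFDP1, the dimer partner of E2F factors, fell in MDA-MB-231 (-0.79 ± 0.16), BT549 (-0.73 ± 0.16) and SUM149 (-0.42 ± 0.16), and RBL1, a relative of RB1, fell in MDA-MB-231 (-1.29 ± 0.17) and SUM149 (-0.61 ± 0.17). RB1 itself gave signal on 4 of 4 arrays in each of SUM149, MDA-MB-157 and MDA-MB-231, and on 0 of 4 in MDA-MB-468 and BT549. The members fell in a line with RB1 signal, MDA-MB-231, and in a line without, MDA-MB-468, and the part of RB1 in the responses was not tested.

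Of 20 measured G2/M genes, 7 fell in MDA-MB-231, 8 in MDA-MB-468, 5 in BT549 and 3 in MDA-MB-157, where 0 rose, and in SUM149 13 rose and 0 fell, where 14.5% of all probes rose. Of all probes 13.3% fell in MDA-MB-231, 2.99% in MDA-MB-468, 18.2% in BT549 and 4.35% in MDA-MB-157. The median was -0.37 in MDA-MB-231, -0.63 in MDA-MB-468, -0.21 in BT549, -0.23 in MDA-MB-157 and 0.88 in SUM149. MKI67, the proliferation antigen, fell in MDA-MB-231 (-1.47 ± 0.33) and BT549 (-1.02 ± 0.33). KIF11, a motor of the mitotic spindle, fell in BT549 (-0.85 ± 0.26), MDA-MB-231 (-0.90 ± 0.26) and MDA-MB-468 (-0.85 ± 0.26), and CENPF, a kinetochore protein, fell in MDA-MB-468 (-0.92 ± 0.26) and MDA-MB-157 (-0.81 ± 0.26). In BT549 the G2/M genes and the replication genes thus differed in the sign of their medians, -0.21 against 0.17, a difference that was not tested.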

How the data were processed

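Total RNA of the 20 cultures was amplified, labelled with biotin and hybridised to Illumina HumanHT-12 beadchips. The authors extracted bead signals with BeadStudio, and the deposited tables hold per array an average signal (a linear intensity), a detection p-value, and, in a further table, the intensity after quantile normalization by the authors. The probe annotation used here and the chip version named in the methods differ, which does not change the values.

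From the signals, limma 3.58.1 in R 4.3.3 was used for normexp background correction by detection p-values (offset 16), quantile normalization and log2 transformation. The 10 groups were fitted together, with 2 arrays each, and the response of each line was a contrast called at a Benjamini-Hochberg adjusted p under 0.1. The 2 cultures of a group are labelled A and B. The study describes an independent second set of treated and untreated cells, and the labels do not tie a letter to a set, so the main fit has no block and p-values measure the spread between these cultures. The number of arrays limits the precision. Over the 5 lines, A and B were averaged and the line was a block. The genes of a role that are given on each array are the 2 with the largest absolute t over the 5 lines and the called gene with the largest change in each line, by the probe with the highest mean. A probe detected on no array of a group has a bound there, set by the lowest detected signal of the array or its own signal where that is higher, on the background-corrected scale and again without correction, a choice made after seeing the data. Members, lists and tests were chosen with earlier results of these data known. The fit was tested on simulated data. Alternatives were the authors' normalized values, no background correction, median scaling, other detection filters, stricter calls, fits of single lines, a replicate block and leaving out each array.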

Additional observations from a re-analysis of the deposited data

Results flagged for a closer look

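The response to WHF differed between the 5 lines for 38 of the 49 tested member genes when the interaction of line and treatment was tested (F test), measured against the spread between replicate cultures, with adjusted p-values from 0.00065 for POLD1 to 0.0973 for RPA1. Over all tested probes, 41.1% passed this test. For licensing genes the F values were 4.38 for ORC1, 4.67 for CDT1, 3.75 for MCM2, 7.68 for MCM3, 6.54 for MCM4, 6.53 for MCM5 and 5.87 for MCM7. Among helicase activation genes the F values were 13.7 for MCM10, 5.16 for CDC45, 7.65 for GINS2, 7.29 for GINS3, 6.06 for GINS4 and 12.6 for CDC7. Polymerase genes had F values of 9.48 for POLA2, 3.32 for POLE, 12.1 for POLE2 and 16.5 for POLD1. Genes of the clamp group had F values of 3.74 for RFC2, 5.46 for RFC3, 6.96 for RFC4, 6.62 for RFC5, 12.1 for DSCC1, 8.69 for FEN1 and 8.90 for LIG1. The RPA genes had F values of 3.29 for RPA1, 10.4 for RPA2 and 3.93 for RPA3. Nucleotide supply genes had F values of 8.86 for RRM1, 4.48 for RRM2, 12.4 for TYMS and 13.9 for TK1. In G1/S control the F value was 9.61 for E2F2. Chromatin genes had F values of 15.5 for CHAF1A, 9.72 for CHAF1B and 6.06 for UHRF1. Checkpoint and repair genes had F values of 7.46 for UNG, 5.06 for BRCA1 and 3.85 for BARD1. The pattern of the lines for each of these genes is given above with its values on every array or as counts. Groups of 2 arrays are too small to single out an array that stands apart.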

How the results depend on the processing

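Under the alternatives run, 179 of 179 medians over all member genes kept their sign. Many of these could not change, since leaving out an array of another line, for example, leaves a line's median as it was. Medians of 2 roles changed sign with median scaling, that of licensing in SUM149 (0.28, against -0.04) and that of single-strand binding over the 5 lines (0.14, against -0.01). With median scaling the median of all tested probes was 0.10 in MDA-MB-231, 0.12 in BT549 and 0.16 in SUM149, against 0.0054, 0.0124 and -0.0037 in the main values. The member probes that fell in MDA-MB-468, 17 in all, were 28 with the authors' normalized values and 28 without background correction, 11 at an adjusted p under 0.05, and 2 when more than 2-fold was asked for as well. The 3 that fell in MDA-MB-157 were 1 with median scaling, 1 at an adjusted p under 0.05 and 0 with more than 2-fold. With more than 2-fold, 20 of the 42 that fell in MDA-MB-231 were left, 1 of 10 lower and 1 of 13 higher in BT549, and 1 of 3 lower and 1 of 12 higher in SUM149. From the arrays of the line alone, 3 rose in SUM149. When each array was left out in turn, the lower probes numbered 26 to 44 in MDA-MB-231, 5 to 10 in BT549, 0 to 3 in MDA-MB-157, 0 to 20 in MDA-MB-468 and 2 to 4 in SUM149, and the higher probes 4 to 15 in BT549 and 5 to 25 in SUM149. The line-by-treatment F test then passed for 41 to 53 probes and the F test of untreated lines for 65 to 67. Untreated MDA-MB-468 was higher than untreated SUM149 in 27 to 43 probes and lower in 5 to 8, and untreated BT549 was higher than untreated MDA-MB-157 in 25 to 34 and lower in 7 to 12. The 53 named calls of a gene in a line gave 1537 values over the settings, of which 1312 kept the call, 225 lost it and 0 changed sign. Of these values, 1060 came from leaving out an array. An array of another line leaves the change itself as it was and alters only its test.

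The labels do not say that a letter marks a shared preparation. The deviations of cultures of a line with the same letter had correlations of 0.0399 in MDA-MB-231, 0.0589 in BT549, 0.299 in MDA-MB-157, 0.226 in MDA-MB-468 and 0.154 in SUM149 over all tested probes, and over the member probes 0.219, 0.089, 0.292, 0.121 and 0.166 in that order. With the letter as a replicate block, 46 probes fell in MDA-MB-231, 12 in BT549, 3 in MDA-MB-157, 22 in MDA-MB-468 and 3 in SUM149, 14 rose in BT549 and 16 in SUM149, and the F test between lines passed for 56. Over the 5 lines, 22 passed, all lower, with 10 pairs of cultures as the replicates and line by letter as the block, against 0 with the line as the replicate, and the fits differ in both. Of the 53 named calls, those of POLE (adjusted p = 0.135) and CHAF1A (adjusted p = 0.102) in MDA-MB-468 were lost with the block, and the others kept it. The cause of these shifts was not tested. Signals near background limit the dimmest genes, such as GINS1 in BT549 and CHAF1A, E2F2 and GINS4 in MDA-MB-231, to bounds.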
